A study of Mus musculus with 6 samples.

Results

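The genes described here are 43 imprinted genes of the mouse that lie outside the Snrpn and Kcnq1 imprinted clusters. They were taken from a fixed list of symbols, and every entry of the authors' expression table that carried such a symbol was used. All 43 symbols were found, at 44 of the 24207 entries of the table, because Peg3 was listed at 2 entries. The genes fall into 18 imprinted domains on 10 chromosomes. RNA-seq was performed on 6 male embryos at E9.5. The 3 control embryos were Smchd1+/+, wildtype at Smchd1, and the other 3 were Smchd1MommeD1/MommeD1, homozygous for the MommeD1 allele, a nonsense mutation made by chemical mutagenesis. Smchd1 is a chromatin protein required for X inactivation, and the comparison asks which autosomal genes depend on it. The sample labels give C57Bl6/J x FVB/n as the background of both genotypes, whereas the study's text describes a backcross to a different strain for its embryo RNA-seq. The mutation is carried by every cell of the embryo, and whole embryos were used, so a value is an average over all tissues.

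The authors' table holds 1 FPKM value (fragments per kilobase of transcript scaled to the number of mapped fragments) per genotype, pooled over the embryos. Values of single embryos were not analysed here. The error between embryos was therefore not estimated here, no test across embryos was made here, and the number of reads behind a value is unknown. Differences are given as log2 ratios of mutant over wildtype FPKM after adding 0.1 FPKM to each, a scale that understates the difference of low genes. In whole embryos, fewer cells that express a gene and less RNA per cell cannot be told apart. FPKM also sums the alleles, so none of the values says which parental copy was read.

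Imprinted genes are expressed from only the maternal or only the paternal chromosome. They mostly lie in domains, each governed by an imprint control region whose DNA is methylated on the chromosome from a single parent. Within a domain, genes of opposite allele often stand in a reciprocal relation, and many domains hold long noncoding RNAs, some of which silence neighbouring genes in cis. The products of imprinted genes are known for control of fetal and placental growth, with Igf2 promoting growth and Igf2r and Grb10 restraining it. Loss of imprinting raises expression only if the normally silent allele is switched on, and it lowers expression where both alleles become silent.

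Smchd1 itself was at 2.12 FPKM in mutant embryos against 34.0 FPKM in wildtype embryos, a log2 ratio of -3.94. The Y-linked genes were read in both genotypes. Ddx3y was at 8.75 and 9.81 FPKM and Kdm5d at 5.62 and 5.46 FPKM, Uty at 5.17 and 6.37 FPKM (-0.30) and Eif2s3y at 14.3 and 21.1 FPKM (-0.56), with Xist at 0.00 FPKM in mutant embryos against 0.01 FPKM in wildtype embryos. The embryonic globin gene Hbb-bh1 and the progenitor gene Sox2, at 47.1 and 43.6 FPKM, were present in both genotypes.

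Among imprinted genes the level spanned a wide range. Mest, a paternally expressed hydrolase gene of mesoderm, was highest at 976 FPKM in wildtype embryos and ranked 147 among all entries. H19, the maternally expressed noncoding RNA, followed at 964 FPKM, then Gnas, which encodes the stimulatory G protein alpha subunit, at 676 FPKM and Igf2 at 532 FPKM. Grb10, Nnat, Peg3 and Peg10 lay between 165 and 316 FPKM in wildtype embryos. The last of these 8 genes, Peg10, ranked 575 among all entries. In contrast, 7 genes had a mean below 1 FPKM. Ins2, an insulin gene imprinted in yolk sac, was listed at 0 in both genotypes. The other 6, Rasgrf1, Calcr, Tfpi2, Rtl1, Nespas and Klf14, lay between 0.0420 and 0.744 FPKM in wildtype embryos and between 0.0511 and 0.541 FPKM in mutant embryos. The remaining 36 genes, in 17 domains, reached a mean of 1 FPKM and were used for counts and medians. For Plagl1 the authors' program marked its comparison as failed, so its values are less certain.

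**Figure D1:**
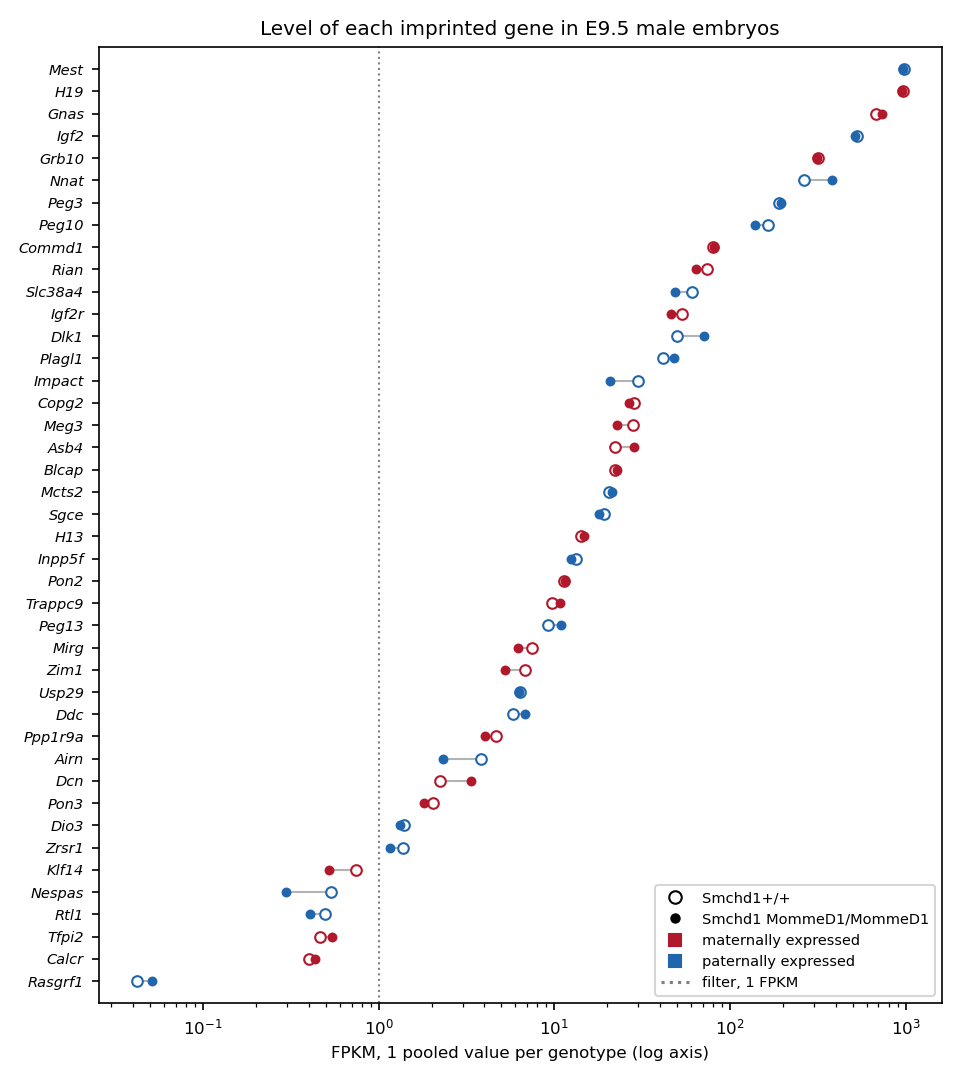
Level of each imprinted gene in FPKM (log axis), ordered by the wildtype value; open points are Smchd1+/+, filled points Smchd1MommeD1/MommeD1, 1 pooled value each, red for maternally and blue for paternally expressed genes. Ins2, listed at 0, is not drawn. Points of most genes nearly coincide, and Airn, Dcn, Nnat, Dlk1, Impact, Nespas and Klf14 show visible gaps.

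Of the 36 genes, 0 were at least 1.5-fold higher in mutant embryos and 1, Airn, was at least 1.5-fold lower. With 0.01 FPKM added, or FPKM rescaled to the same total, Dcn passed the limit, and with 1 FPKM added Airn did not. Among all 12463 loci whose mean reached 1 FPKM, 3.51% were at least 1.5-fold higher and 1.47% at least 1.5-fold lower. At the 2-fold level 0 of the 36 genes were past the limit, against 0.979% of all loci higher, 0.514% lower and 1.49% in either direction. The 1 gene of 36 past 1.5-fold stands beside 4.98% of all loci in either direction, and these counts lie near the background. The median log2 ratio of the 36 genes was -0.02, beside -0.01 for all loci, with 15 genes higher and 21 lower, where 48.2% of all loci were higher and 51.8% lower. A log2 ratio within 0.25 of 0 was found for 26 of the 36 genes (72.2%) and for 79.8% of all loci. The genes nearest the 1.5-fold limit of 0.58 on the log2 scale without passing it were Dcn (0.57), Nnat (0.53), Impact (-0.53) and Dlk1 (0.50).

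The width of the log2 ratios over all loci depended on the level of the gene. Their 5th and 95th percentiles were -0.41 and 0.67 for means of 1 to 10 FPKM, -0.25 and 0.26 for means of 10 to 100 FPKM, and -0.30 and 0.24 above that. Against loci of its own level, Airn lay below the 5th percentile among 10 genes of the lowest class, and Dcn lay within the range. Among 18 genes of the middle class, Meg3, Impact and Slc38a4 lay below and Dlk1 and Asb4 above. Among 8 genes of the highest class, Nnat lay above. These classes were chosen after the values were seen and describe the spread between genes, not between embryos.

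**Figure D2:**
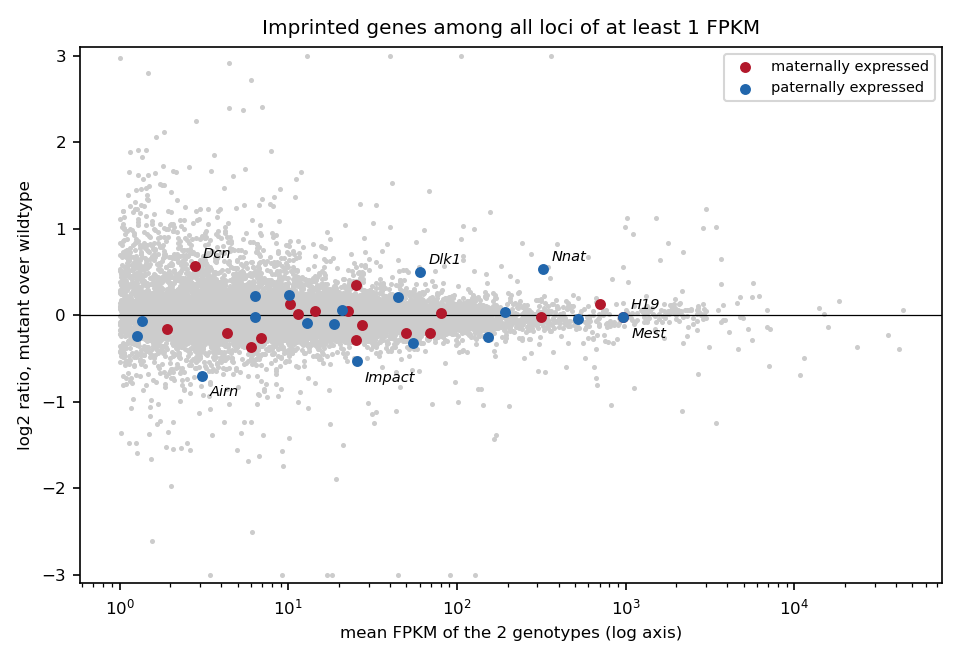
Log2 ratio of mutant over wildtype FPKM against the mean FPKM of both genotypes (log axis) for all 12463 loci whose mean reached 1 FPKM (grey), with maternally expressed genes in red and paternally expressed genes in blue; 11 loci beyond 3 on the log2 scale are drawn at the edge. H19 and Mest lie on the zero line among the most abundant transcripts, and Airn, Impact, Dlk1, Nnat and Dcn lie farthest from it.

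By expressed parental allele, 18 maternally expressed genes had a median log2 ratio of -0.02, with 8 higher and 10 lower. The 18 paternally expressed genes had a median of -0.03, with 7 higher and 11 lower. Of all loci, 51.8% were lower. The genes were further divided by textbook knowledge into those imprinted broadly in the embryo and those imprinted only in some tissues, such as placenta or brain, or for a single isoform. All 7 broadly imprinted maternal genes, namely H19, Meg3, Rian, Mirg, Grb10, Zim1 and Igf2r, were lower in mutant embryos, from -0.37 to -0.02 with a median of -0.21, but only 5 of 7 were lower when FPKM was rescaled to the same total, as H19 and Grb10 then changed sign. Meg3, Rian and Mirg are neighbours in the Dlk1-Dio3 domain, so the 7 genes are not separate cases, and the median is the value of Rian. The 16 broadly imprinted paternal genes went both ways, with 6 higher and 10 lower and a median of -0.03. Among the 11 maternal genes of limited imprinting, 8 were higher, with a median of 0.05.

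**Figure D3:**
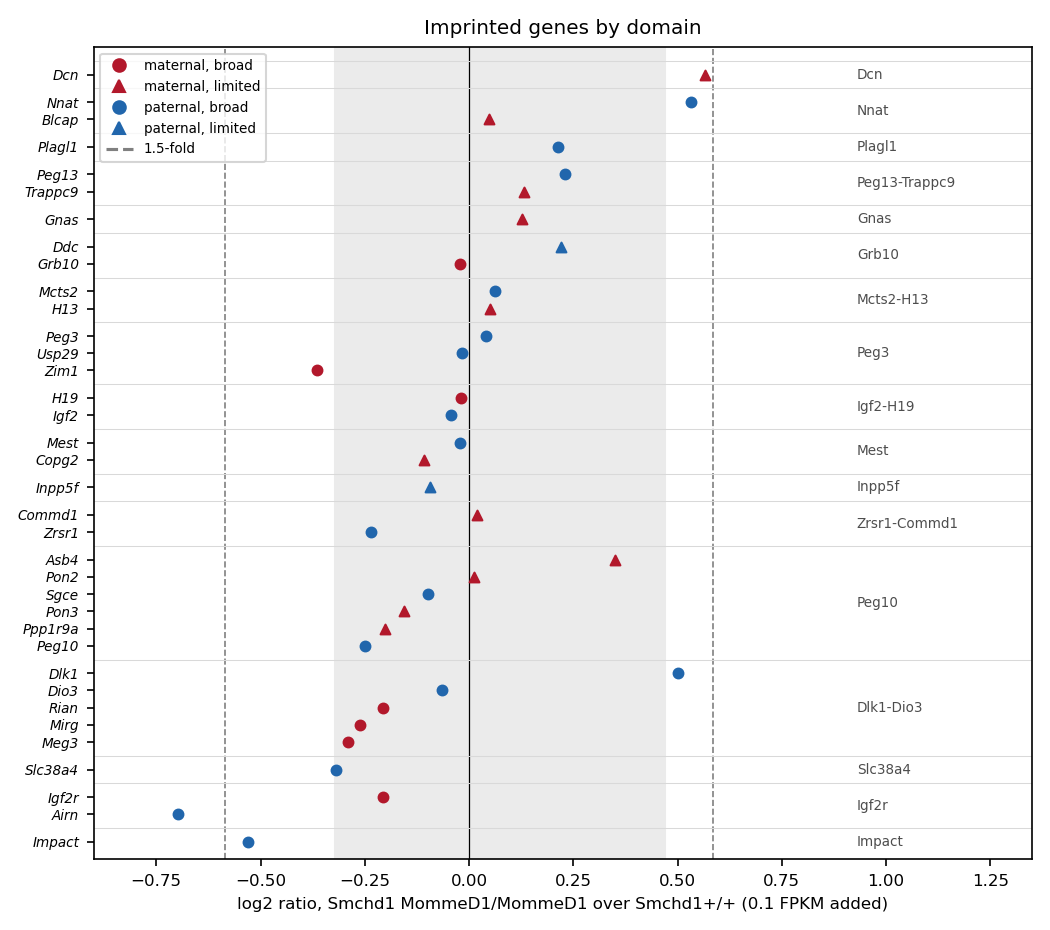
Log2 ratio of each of the 36 genes whose mean reached 1 FPKM, grouped by domain and ordered by domain median; red, maternally expressed; blue, paternally expressed; circles, broadly imprinted; triangles, imprinted in some tissues or isoforms. The grey band runs from the 5th to the 95th percentile of all loci (-0.32 to 0.47), and Airn alone lies past the dashed 1.5-fold lines.

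In the Igf2-H19 domain on chromosome 7, H19 and Igf2 each differed by a few percent between the genotypes. H19 (142575522 to 142578146, MM10) was at 952 FPKM in mutant embryos against 964 FPKM in wildtype embryos, a log2 ratio of -0.02. Igf2, the growth factor expressed from the paternal allele, was at 516 and 532 FPKM, a log2 ratio of -0.04. H19 and Igf2 share enhancers. The ratio of H19 to Igf2 was 1.85 in mutant and 1.81 in wildtype embryos. An antisense entry in the Igf2 locus, Igf2as, was at 5.40 and 5.90 FPKM, and reads from its strand and from Igf2 cannot be told apart in nondirectional libraries.

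In the Igf2r domain on chromosome 17, both genes were lower in mutant embryos, Airn more than Igf2r. Igf2r, the receptor that clears Igf2 and is expressed from the maternal allele, was at 46.2 FPKM in mutant embryos against 53.2 FPKM in wildtype embryos, a log2 ratio of -0.21. Airn, the paternally expressed noncoding RNA whose transcription across the Igf2r promoter silences the paternal Igf2r, was at 2.32 and 3.83 FPKM, a log2 ratio of -0.70, or -0.54 and so inside the 1.5-fold limit with 1 FPKM added in place of 0.1. In GENCODE M21, Airn (12741311 to 12860136, plus strand) overlaps Igf2r on the opposite strand by 28354 bp, and the table assigns both to a shared locus of 3 entries, so their reads are hard to separate. With 0.1 FPKM added to each value, the Igf2r to Airn ratio was 19.1 in mutant and 13.6 in wildtype embryos. The solute carrier genes Slc22a2 and Slc22a3 of the same cluster, imprinted in placenta, were at 0.232 FPKM or less in both genotypes, and the Mas1 entry was at 0.11 FPKM in both.

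Grb10, an adaptor that binds the insulin and IGF receptors, was at 312 FPKM in mutant embryos against 316 FPKM in wildtype embryos, a log2 ratio of -0.02. Its neighbour Ddc, which encodes the decarboxylase of dopamine and serotonin synthesis, was at 6.798 and 5.82 FPKM, a log2 ratio of 0.22. A list of 24 other genes of IGF and insulin signalling was examined, of which 20 reached a mean of 1 FPKM, among them Pik3ca, whose comparison the authors' program marked as failed. Their median log2 ratio was -0.02, with 8 higher and 12 lower, and 1 gene was at least 1.5-fold higher and 2 were lower by that much, where the shares of all loci were 3.51% and 1.47%. Igf1, the other IGF ligand, was at 3.95 and 2.50 FPKM (0.64). The genes past the limit in the other direction were the adaptor Grb7, at 6.47 and 10.5 FPKM (-0.68), and the insulin receptor substrate Irs4, at 3.84 and 5.99 FPKM (-0.63). The most abundant members were the binding proteins Igfbp4 (219 and 195 FPKM), Igfbp2 (171 and 132 FPKM) and Igfbp5 (136 and 127 FPKM). The receptors Igf1r (-0.05) and Insr (-0.01) and the mRNA-binding proteins Igf2bp1, Igf2bp2 and Igf2bp3 lay between -0.08 and 0.01.

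In the Dlk1-Dio3 domain on chromosome 12, the paternally expressed Dlk1 was higher and the maternally expressed RNAs were lower in mutant embryos. Dlk1, a transmembrane protein related to Notch ligands and expressed from the paternal allele, was at 70.8 FPKM in mutant embryos against 50.01 FPKM in wildtype embryos, a log2 ratio of 0.50. Meg3, a maternally expressed noncoding RNA, was at 22.8 and 27.9 FPKM (-0.29). Rian, a host of small nucleolar RNAs, was at 63.9 and 73.8 FPKM (-0.21). Mirg, a host of microRNAs, was at 6.23 and 7.49 FPKM (-0.26). All 3 entries also carry microRNA symbols. With 0.1 FPKM added to each value, the ratio of Meg3 to Dlk1 was 0.323 in mutant and 0.559 in wildtype embryos. This log2 difference of -0.79 was the widest among the reciprocal pairs with both genes above the filter. Dio3, the deiodinase at the far end of the domain, was near the filter at 1.32 and 1.38 FPKM (-0.06), and Rtl1, a gene derived from a retrotransposon, was below it at 0.403 and 0.493 FPKM.

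The promoters of Dlk1 and Meg3, the pair above the filter whose ratio differed most, and of Airn and Nnat are shown. DNA methylation at CpG sites marks the parental alleles at imprint control regions. Those regions were not located here and no methylation was measured here, so the printed bases are not known to carry the mark. Each is the 250 bases before a RefSeq start site of GRCm38.p6, 5′ to 3′ on the strand of the gene, with CpG sites in capitals. Dlk1 lies at chr12:109452573-109452822 and Meg3 at chr12:109540746-109540995, Airn at chr17:12741061-12741310 and Nnat at chr2:157559828-157560077, all on the plus strand. The RefSeq span of Dlk1 begins earlier, at 109452485, so its printed bases lie within the annotated gene, before a later start site.
Dlk1: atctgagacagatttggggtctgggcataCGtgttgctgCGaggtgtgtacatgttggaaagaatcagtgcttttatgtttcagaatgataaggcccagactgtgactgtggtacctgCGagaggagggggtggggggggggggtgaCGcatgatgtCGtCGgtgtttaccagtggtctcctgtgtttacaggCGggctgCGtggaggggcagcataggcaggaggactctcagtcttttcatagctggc
Meg3: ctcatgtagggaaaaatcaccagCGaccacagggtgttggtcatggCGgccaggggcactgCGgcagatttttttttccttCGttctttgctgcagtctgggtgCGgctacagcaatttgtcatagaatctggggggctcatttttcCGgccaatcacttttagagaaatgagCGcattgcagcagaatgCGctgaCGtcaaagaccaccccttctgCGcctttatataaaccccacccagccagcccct
Airn: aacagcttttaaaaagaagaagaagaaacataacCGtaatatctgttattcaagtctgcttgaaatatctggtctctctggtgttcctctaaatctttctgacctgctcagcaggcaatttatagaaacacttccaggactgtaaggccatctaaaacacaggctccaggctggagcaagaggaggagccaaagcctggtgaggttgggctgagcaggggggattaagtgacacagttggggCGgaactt
Nnat: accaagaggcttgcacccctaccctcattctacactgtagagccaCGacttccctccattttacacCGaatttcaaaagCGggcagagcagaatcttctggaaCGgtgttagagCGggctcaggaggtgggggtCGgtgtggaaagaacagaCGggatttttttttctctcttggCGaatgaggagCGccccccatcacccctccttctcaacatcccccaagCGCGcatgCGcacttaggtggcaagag
The printed 250 bases of Nnat held 12 CpG sites, those of Meg3 10, those of Dlk1 8 and those of Airn 2. RefSeq promoter windows of 300 bases, 250 before and 50 after the start, were given for 32 of the 43 genes and not for Dcn, H19, Impact, Ins2, Klf14, Nespas, Peg10, Peg13, Rtl1, Sgce and Trappc9. The median was 14 CpG sites over 51 windows, beside 7 over 32851 windows of all genes. At the starts shown above, the windows of 300 bases held 17 CpG sites for Nnat, 13 for Meg3, 9 for Dlk1 and 3 for Airn. The letters TGCCGC, which the imprint-maintenance protein ZFP57 binds when methylated, were searched on both strands and found in 13 of the 51 windows (25.5%) and in 11.6% of all windows. Windows of a gene can overlap, and the 2 Mest windows that hold the letters overlap almost fully. They occurred in windows of 12 genes, among them Meg3, Nnat, Plagl1, Mest and Grb10, and in none of those of Dlk1 and Airn. The match of Nnat lies after the start and outside the printed bases. The letters hold a CpG site themselves, and windows of equal CpG content were not compared. A match in these letters is not evidence of binding.

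In the Peg3 and Mest domains, the abundant paternally expressed genes were close to equal between the genotypes, and the maternally expressed Zim1 was lower. In the Peg3 domain, the zinc finger gene Peg3 was at 196 FPKM in mutant embryos against 190 FPKM in wildtype embryos at its more abundant entry (0.04) and at 104 and 110 FPKM at its other entry (-0.07). The antisense entry Peg3as in the same locus was at 171 and 177 FPKM, and reads of these 3 entries cannot be told apart by strand. Usp29, a ubiquitin protease gene, was at 6.32 and 6.39 FPKM (-0.02). Zim1, the maternally expressed zinc finger gene of the domain, was at 5.27 and 6.82 FPKM (-0.37). In the Mest domain, Mest was at 962 and 976 FPKM (-0.02) and its neighbour Copg2, a subunit of the COPI vesicle coat, at 26.5 and 28.5 FPKM (-0.11). Klf14, a transcription factor gene without introns, stayed below 1 FPKM at 0.521 and 0.744.

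The Peg10 domain on chromosome 6 had 6 genes above the filter, with a median log2 ratio of -0.13. Peg10, a retrotransposon-derived gene needed in placenta, was at 139 FPKM in mutant embryos against 165 FPKM in wildtype embryos (-0.25). Sgce, the sarcoglycan gene next to it on the opposite strand, was at 17.99 and 19.3 FPKM (-0.10). These are the broadly imprinted paternal genes of the domain, and both were lower. The maternal genes went both ways. Asb4, a subunit of a ubiquitin ligase, was at 28.3 and 22.2 FPKM (0.35), and Pon2, a paraoxonase gene, at 11.5 and 11.4 FPKM (0.01). Ppp1r9a, an actin-binding protein gene, was at 4.02 and 4.64 FPKM (-0.20), and Pon3 at 1.81 and 2.02 FPKM (-0.15).

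On chromosome 2, Nnat, a small membrane proteolipid gene of the developing nervous system, was at 383 FPKM in mutant embryos against 265 FPKM in wildtype embryos, a log2 ratio of 0.53. Blcap, in an intron of which Nnat lies, was at 22.9 and 22.1 FPKM (0.05), a smaller difference than that of the gene inside it. Neuron markers moved in the same direction as Nnat. Of 15 neuron markers in the table, 13 passed the filter and all 13 were higher, 11 of them by at least 1.5-fold (3.51% of all loci), with a median of 1.14 and a summed level over all 15 of 251 FPKM in mutant embryos against 119 FPKM in wildtype embryos. Tubb3, the neuronal tubulin and most abundant of them, was at 99.9 and 37.0 FPKM, followed by Gap43 (39.9 and 31.4 FPKM) and Stmn2 (22.6 and 11.5 FPKM). Those above the filter and at least 2-fold higher were Tubb3, Nefm, Nefl, Nhlh1, Nhlh2, Elavl3 and Dcx, from 1.14 to 1.85. Below the filter, Snap25 was also that much higher (1.26). Of all loci, 0.979% were at least 2-fold higher, and none of the neuron markers was at 0. Their part in the difference of Nnat was not tested. Gnas was at 739 and 676 FPKM (0.13). Nespas, an antisense RNA in the Gnas locus, was at 0.298 and 0.537 FPKM, below the filter. Mcts2, a retrogene in an intron of H13, was at 21.4 and 20.4 FPKM (0.06), and H13, a signal peptide peptidase gene, at 14.7 and 14.2 FPKM (0.05).

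Domains with a single gene or with a nested gene showed both the lowest and the highest values besides Airn. Impact, a translational regulator gene on chromosome 18 expressed from the paternal allele, was at 20.8 FPKM in mutant embryos against 30.1 FPKM in wildtype embryos (-0.53). Slc38a4, an amino acid transporter gene of placenta and liver, was at 48.8 and 60.9 FPKM (-0.32). Plagl1, a zinc finger factor gene, was at 47.9 and 41.4 FPKM (0.21). Peg13, a noncoding RNA in an intron of Trappc9, was at 10.9 and 9.26 FPKM (0.23), and its host was at 10.7 and 9.75 FPKM (0.13). Zrsr1, a splicing factor retrogene in an intron of Commd1, was at 1.16 and 1.38 FPKM (-0.24), and Commd1 was at 81.5 and 80.4 FPKM (0.02). The phosphatase gene Inpp5f was at 12.4 and 13.3 FPKM (-0.09).

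Dcn, the gene of the matrix proteoglycan decorin that is imprinted in placenta, was at 3.34 FPKM in mutant embryos against 2.23 FPKM in wildtype embryos, a log2 ratio of 0.57, which passed the 1.5-fold limit with 0.01 FPKM added or with FPKM rescaled to the same total. Of 14 mesenchyme markers, all above the filter, 10 were higher and 4 lower, with a median of 0.15 and a summed level of 564 and 517 FPKM. Fn1, the most abundant, was at 87.0 and 110 FPKM, Sparc at 94.2 and 84.0 FPKM, Col3a1 at 86.7 and 60.7 FPKM, and no marker was at 0. Their part in the difference of Dcn was not tested. The trophoblast markers Tpbpa, Prl3d1, Prl2c2 and Psg18 were at 0 in both genotypes. Of 14 trophoblast markers, 3 passed the filter (median -0.35, or -0.03 with a filter of 0.1 FPKM and -1.12 with one of 5 FPKM), and the most abundant, Phlda2, itself imprinted in the Kcnq1 domain, was at 8.14 and 30.5 FPKM (-1.89), with Hand1 at 15.8 and 20.1 FPKM and Tfap2c at 2.95 and 2.36 FPKM. The 14 markers summed to 28.4 and 54.2 FPKM, mostly from Phlda2 and Hand1, which alone passed the filter of 5 FPKM.

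For each domain, up to 3 nearest loci on each side with a single symbol and a mean of at least 1 FPKM were taken as flanks. Their distance from the domain ran from 4.44 kb, after Inpp5f, to 4898 kb, after Grb10, so some flanks are not close neighbours. Only 1 such locus was found before the Peg10 domain, which therefore had 4 flanks. The flanks numbered 106 in all and had a median log2 ratio of -0.02, with 44 higher and 62 lower. Among them 4 were at least 1.5-fold higher and 0 were lower by that much, against the shares of 3.51% and 1.47% for all loci. They included Tubb1, a platelet tubulin gene beside Gnas (1.65), and Cpa4, a carboxypeptidase gene beside Mest (0.78). Another was Tspan32, a blood cell tetraspanin gene 325 kb from the Igf2-H19 domain (1.07). Only genes of the studied list were left out of the flanks, so a flank can itself be imprinted or lie in a neighbouring imprinted cluster. Around Dlk1-Dio3 the flanks ran from -0.12 (Hsp90aa1) to 0.26 (Wars), so Dlk1 at 0.50 lay above and Meg3, Rian and Mirg lay below all 6 of them. Around Igf2r they ran from -0.11 (Mrpl18) to 0.05 (Agpat4), and both Igf2r and Airn lay below. Around Nnat they ran from -0.01 to 0.19, below the value of Nnat, and around Impact from -0.44 to 0.03, above the value of Impact. Of the 36 genes, 20 lay inside the range of their own flanks, 6 above and 10 below. Of all loci, 29.5% lay outside the range of the nearest loci on each side, and genes of a domain share their flanks, so the count is a description. Those inside included H19 and Igf2, whose flanks ran from -0.31 to 1.07, Grb10 and Ddc (-0.38 to 0.45) and Mest and Copg2 (-0.50 to 0.78). The 4 flanks of the Peg10 domain were all lower, from -0.35 to -0.09, and Peg10, Sgce, Ppp1r9a and Pon3 lay within that range, with Asb4 and Pon2 above it. A range of so few loci is narrow in some domains, and Inpp5f at -0.09 and Pon2 at 0.01 lay outside theirs.

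**Figure D4:**
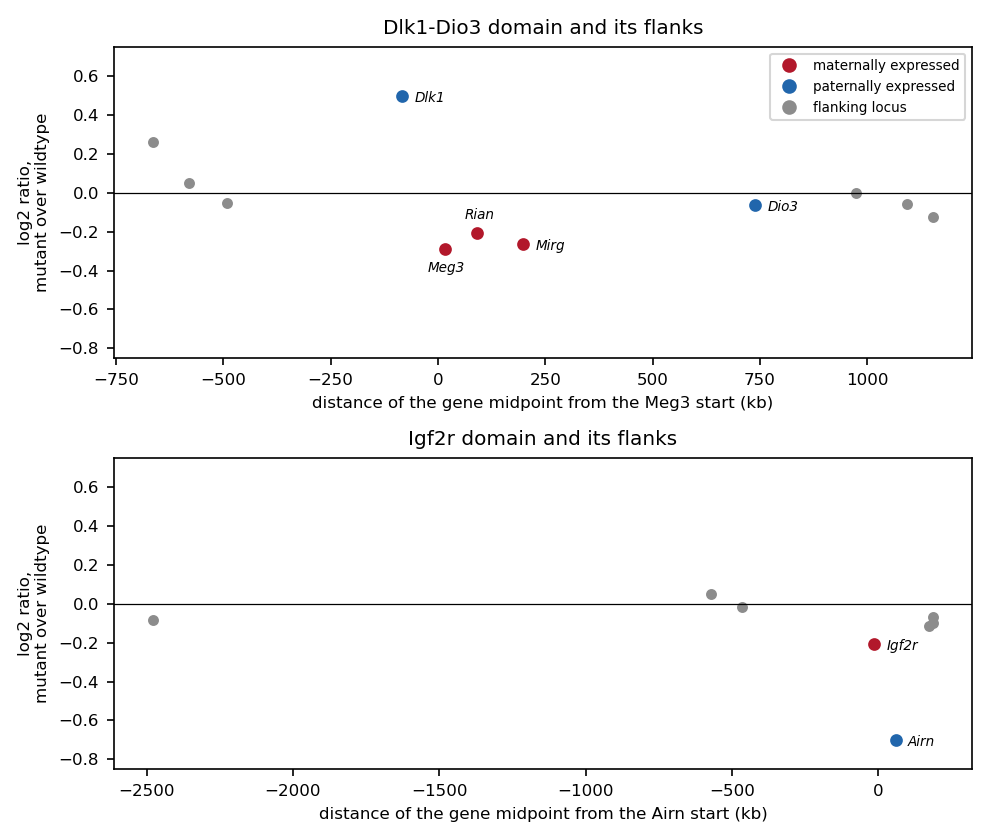
Log2 ratio of mutant over wildtype FPKM against distance of the gene midpoint in kb from the Meg3 start (upper panel) or the Airn start (lower panel); red, maternally expressed; blue, paternally expressed; grey, the 3 nearest flanking loci on each side. Dlk1 lies above its flanks and Meg3, Rian and Mirg below them, and Airn is the lowest point of its panel.

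A list of 31 symbols of further imprinted genes, or neighbours thought to be imprinted in some tissue, was also examined. It holds Eif2c2 and Phf17 also under their newer symbols Ago2 and Jade1. Of the symbols, 24 were found and 13 reached a mean of 1 FPKM, with a median log2 ratio of 0.00, 7 higher and 6 lower. None of the 13 was past the 1.5-fold limit, which at 4.98% of all loci in either direction is near the background. The most abundant were Casd1 beside Peg10 (35.3 and 34.1 FPKM), Chrac1 beside Peg13 (30.5 and 28.7 FPKM) and Eif2c2 (25.7 and 25.9 FPKM). This list is not separate from the flanks, as 5 of the 13, Begain, Cobl, Chrac1, Eif2c2 and Bcl2l1, are also among the 106. A list of genes that maintain imprints, which also holds the DNA demethylation genes Tet1, Tet2 and Tet3, went both ways. Of its 20 genes, 18 passed the filter, 9 were higher and 9 lower, and the median was 0.00. For Ctcf, Ehmt1, Tet1 and Tet3 the authors' program marked the comparison as failed. Trim28, the corepressor recruited to imprints, was at 424 and 427 FPKM (-0.01), and Zfp57, which recognises them, was at 10.1 and 9.44 FPKM (0.10). Uhrf1 was at 129 and 123 FPKM (0.07) and Ezh2 at 77.0 and 79.6 FPKM (-0.05). Dnmt1, the maintenance methyltransferase, was at 65.8 and 65.7 FPKM (0.00), and Dnmt3b, a de novo methyltransferase, was at 13.5 and 18.5 FPKM (-0.44), below the 5th percentile of loci of its level.

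Markers of several cell types differed more between the genotypes than the imprinted genes did. Of 12 erythroid markers, 10 of 11 entries above the filter were higher (median 0.97), with a summed level of 14853 FPKM in mutant embryos against 7041 FPKM in wildtype embryos, led by Hba-x at 4602 and 2274 FPKM. Hbb-y, Hbb-bh1, Hba-a1 with Hba-a2, and Alas2 were also at least 2-fold higher, up to 1.23. Of 14 yolk sac endoderm markers, 9 passed the filter, 3 higher and 6 lower (median -0.69), summing over all 14 to 40.4 and 48.5 FPKM, and the most abundant, Afp, was at 14.7 and 8.10 FPKM. Rbp4 was at 6.46 and 11.8 FPKM, and the markers above the filter past 2-fold were Ttr (-1.56), Apom (-1.25) and Apoa2 (2.77 and 0.913 FPKM). Below the filter, Cubn (-2.51), Apob (-1.86) and Amn (-1.26) were at least 2-fold lower. Of 14 tail bud markers, 11 were lower (median -0.69), summing to 79.1 and 112 FPKM, with Lfng as the most abundant at 17.2 and 15.9 FPKM and Dll1 at 13.2 and 12.8 FPKM. Cdx4, Cdx2, T, Msgn1 and Hes7 were at least 2-fold lower, from -1.74 to -1.24. Among all loci, 0.979% were at least 2-fold higher and 0.514% at least 2-fold lower. With a filter of 5 FPKM only Afp (0.85) and Rbp4 (-0.85) were left of the yolk sac endoderm markers, with a median of -0.00035. The median of the tail bud markers was then -0.41. The 8 endothelial markers had a median of -0.03 and summed to 89.1 and 91.4 FPKM, led by Cdh5, Kdr and Emcn. No marker of these 4 lists was at 0 in both genotypes. The part of these tissue markers in the differences of Airn, Impact, Dlk1 and Nnat was not tested.

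**Figure D5:**
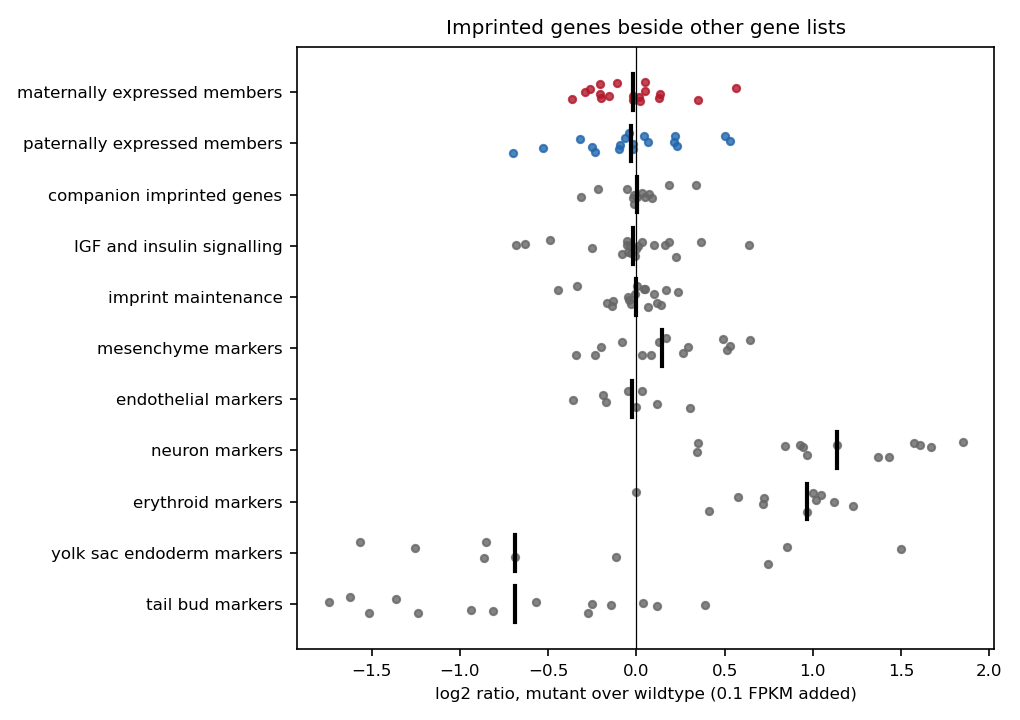
Log2 ratio of mutant over wildtype FPKM of each gene whose mean reached 1 FPKM (points) and the median of each list (black bar), for maternally (red) and paternally expressed (blue) imprinted genes and for other gene lists (grey). The medians of both imprinted groups lie at -0.02 and -0.03. Those of neuron and erythroid markers lie at 1.14 and 0.97, and those of yolk sac endoderm and tail bud markers at -0.69. With a filter of 5 FPKM the yolk sac endoderm median is -0.00035, over Afp and Rbp4 alone, and the tail bud median is -0.41.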

How the data were processed

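RNA-seq of 6 male E9.5 embryos, 3 of each genotype, was used, grouped by the genotype in the labels. According to the paper, single-end 100 bp reads of nondirectional libraries were mapped to MM10. The submitters' processing notes name TopHat2 2.0.6, Bowtie2 2.0.2, and Cufflinks and Cuffdiff 2.0.2. The authors' deposited FPKM values, 1 per genotype, were used. The deposited fold changes, test statistics, p-values and q-values of the authors' own comparison were not used. Locus starts in the table count from 0 and were raised by 1.

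Each gene was represented by its entry of highest mean. Log2 ratios were taken with 0.1 FPKM added, and counts and medians were over genes whose mean reached 1 FPKM. Named genes were all 43 genes of the list and, of other lists, the 3 most abundant and those at least 2-fold different; others were named after their values were seen. The genes, lists and allele groups were chosen with earlier results of these data known. Alternatives were other pseudocounts, filters, scalings, entries and flank numbers. Promoters are from RefSeq (GRCm38.p6). Only the count of loci past the fold limit was tested on simulated data, with differences larger than those seen here for the imprinted genes. The other steps were not tested in this way. Python 3.11.15, numpy 2.4.6, pandas 2.3.3 and matplotlib 3.10.9 were used. The values of 1 flanking locus are not reported here.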

Additional observations from a re-analysis of the deposited data

How the results depend on the processing

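No paired analysis was possible because the table gives 1 value per genotype, and for the same reason no embryo could be left out. Depth is unknown, which limits low genes such as Airn most. Alternatives gave 87 values of the counts, medians and reciprocal pairs. Of these, 80 moved by no more than 0.1 on the log2 scale or 1.5 times for a count. Some could hardly move, as rescaling all loci leaves the ratio of a pair nearly unchanged. With the same total FPKM, the medians of all 36, the maternal and the paternal genes changed sign, to 0.02, 0.02 and 0.01. The flank median also changed sign, to 0.02. Among the medians and pairs only Meg3 over Dlk1 differed by at least 1.5-fold, and no alternative reversed it. With a pseudocount of 0.01 FPKM, and likewise with FPKM rescaled to the same total, 1 gene, Dcn, was at least 1.5-fold higher. The number at least 1.5-fold lower was 0 with a pseudocount of 1 FPKM, 2 with a filter of 0.1 FPKM (Airn and Nespas) and 0 with a filter of 5 FPKM, which removes Airn. A pseudocount of 1 FPKM also changed the log2 ratio of Igf2r over Airn to 0.34. The median of maternally expressed genes was -0.21 with broadly imprinted genes only. Of the 36 genes, 31 kept their sign under all 3 other scalings, which shifted all loci by -0.02 to 0.04, and the signs of H19, Grb10, Usp29, Mest and Pon2 did not. Among 80 list medians, 11 moved by over 0.1. Among these, the trophoblast median was -0.03 with a filter of 0.1 FPKM and -1.12, over Phlda2 and Hand1 alone, with one of 5 FPKM. With the latter, the yolk sac endoderm median was -0.00035, over Afp (0.85) and Rbp4 (-0.85) alone, and the tail bud median was -0.41.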

Other observations

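Other entries of the table lie inside the spans of the imprinted domains. In the Dlk1-Dio3 domain 45 microRNA entries of their own were listed at 0 in both genotypes, so the microRNAs hosted by Meg3, Rian and Mirg have no value apart from that of their hosts. An entry with no symbol between Mirg and Dio3 (chromosome 12, 110183048 to 110190336, MM10) was at 2.01 FPKM in mutant embryos against 1.14 FPKM in wildtype embryos, a log2 ratio of 0.76. Dio3os, the antisense RNA beside Dio3, in an entry that also carries a microRNA symbol, was at 0.344 and 0.225 FPKM. Mcmbp, which shares the Inpp5f locus and encodes a protein that binds the MCM helicase, was at 35.6 and 38.0 FPKM. Inside the span of the Peg10 domain, Col1a2, a collagen gene not known to be imprinted, was at 54.2 and 44.3 FPKM, a log2 ratio of 0.29, while Bet1, a vesicle transport gene, was at 33.2 and 37.0 FPKM (-0.16) and Gng11, a G protein gamma subunit gene, at 19.3 and 18.8 FPKM (0.04).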
